A study of Mus musculus with 48 samples.

Results

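Transcripts of 38 chromatin genes were examined in 48 single mouse cells: 9 genes of Polycomb repressive complex 2 (PRC2), 11 of Polycomb repressive complex 1 (PRC1), 12 of the SWI/SNF remodelling complex, and 6 for the remodellers Chd4 and Chd7, the deacetylases Hdac1 and Hdac2 and the demethylases Kdm1a and Kdm6b. The genes were chosen by name with earlier results of these data known, and genes absent from the table were passed over. Each is on a single row, and they make up 38 of the 23284 gene symbols in the table. The cells came from mouse embryonic stem cells of strain 129P2/OlaHsd with an inducible Mesp1, a transcription factor of nascent mesoderm, which were grown as embryoid bodies for 4 days and received 500 ng/ml doxycycline starting on day 2.25 and ending on day 3.25. Live cells, negative for propidium iodide, were sorted and loaded on a Fluidigm C1 device, which isolates them 1 by 1. All 48 cells carry the same label, Mesp1-induced mesoderm, and no uninduced cells and no separate cultures are named. They therefore stand as 1 sample, no p-value was made from cells, and every interval covers counting error only.

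Polycomb complexes keep developmental genes silent: PRC2 methylates a lysine in the tail of histone H3, and PRC1 ubiquitinates histone H2A and compacts chromatin. SWI/SNF complexes use ATP to slide or evict nucleosomes and act against Polycomb silencing at many genes. Both are built from subunits that come as sets of paralogues, so that a cell can assemble the same kind of complex from different members, and embryonic stem cells are known for an SWI/SNF form with Smarca4, Smarcc1, Smarcd1 and Arid1a.

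Levels are given as FPKM (fragments per kilobase of transcript, scaled to the mapped total), which divides by length. Levels of different genes are set side by side on that basis, and whether length still affects them was not tested. A gene counted as detected in a cell at 1 FPKM or more. The number of detected genes per cell had a median of 6212 and ranged from 4788 to 7010, and it fell with the number in the cell's title (Spearman's rho = -0.82 over 48 cells); the 25 cells numbered up to 48 had a median of 6506 genes and the 23 numbered above 48 a median of 5711. Depth per cell is unknown, because the table holds no counts. Hprt, a housekeeping gene, reached 1 FPKM in 31 cells and had a value of 0 in 13, and zeros are therefore described only as listed. Of 12 nascent mesoderm markers, all were detected in at least 12 cells, with Lhx1 in 38, Eomes in 35, Gata6 in 33 and Mesp2 in 13, and their summed level had a median of 336 FPKM (18.9 to 993 FPKM). Pluripotency markers were present beside them, with Nanog in 46 cells, Tdgf1 in 33, Pou5f1 in 26 and Tfcp2l1 in 6 and a median summed level of 159 FPKM (1.13 to 4657 FPKM). Markers of other lineages were sparser but not absent. Of 8 endoderm markers, Cldn6 was in 13 cells, Foxa2 in 12, Apoa1 in 3 and Ttr in 1, with a median sum of 0 FPKM (up to 276 FPKM). Of 6 neurectoderm markers, Otx2 was in 24 cells, Pax6 in 5, Nes in 4 and Zic1 in 1, with a median sum of 5.15 FPKM (up to 193 FPKM). Of 9 endothelial and blood markers, Runx1 was in 10 cells, Tal1 in 8 and Tek in 2, with a median sum of 0.136 FPKM (up to 104 FPKM). Of the endoderm markers 3 were below 1 FPKM in every cell, Hnf4a, Afp and Foxa1, while Sox17 was in 1 (6.94 FPKM). Of the endothelial and blood markers 6 were below it in every cell: Cdh5, Pecam1, Tie1, Gata1, Hbb-bh1 and Hba-x. These genes were named after their values were seen. The part of cells with markers of other lineages in the levels of the chromatin genes was not tested.

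Most of the chromatin genes were detected in most cells, with counts that varied by complex. Of the 38 genes, 24 were detected in at least 36 cells, which is 63.2%, beside 16% of all symbols in the table and 26.6% of the symbols detected in at least 1 cell. All 48 cells held 13 of the 38 genes, beside 4.99% of all symbols. The genes were chosen with earlier results of these cells known, so these shares stand side by side with no test. A cell held a median of 28 of the 38, with a range from 22 to 33. By complex, 7 of 9 PRC2 genes, 3 of 11 PRC1 genes, 8 of 12 SWI/SNF genes and all 6 of the remaining genes reached 36 cells. The median level per gene was 24.4 FPKM for PRC2, 1.42 FPKM for PRC1, 10 FPKM for SWI/SNF and 22.7 FPKM for the remaining 6, beside 0 FPKM for all symbols. The number of the 38 genes detected in a cell had rho = 0.35 with the number of all genes detected, and its median was 28 in the cells numbered up to 48 and 29 in those above.

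**Figure D1:**
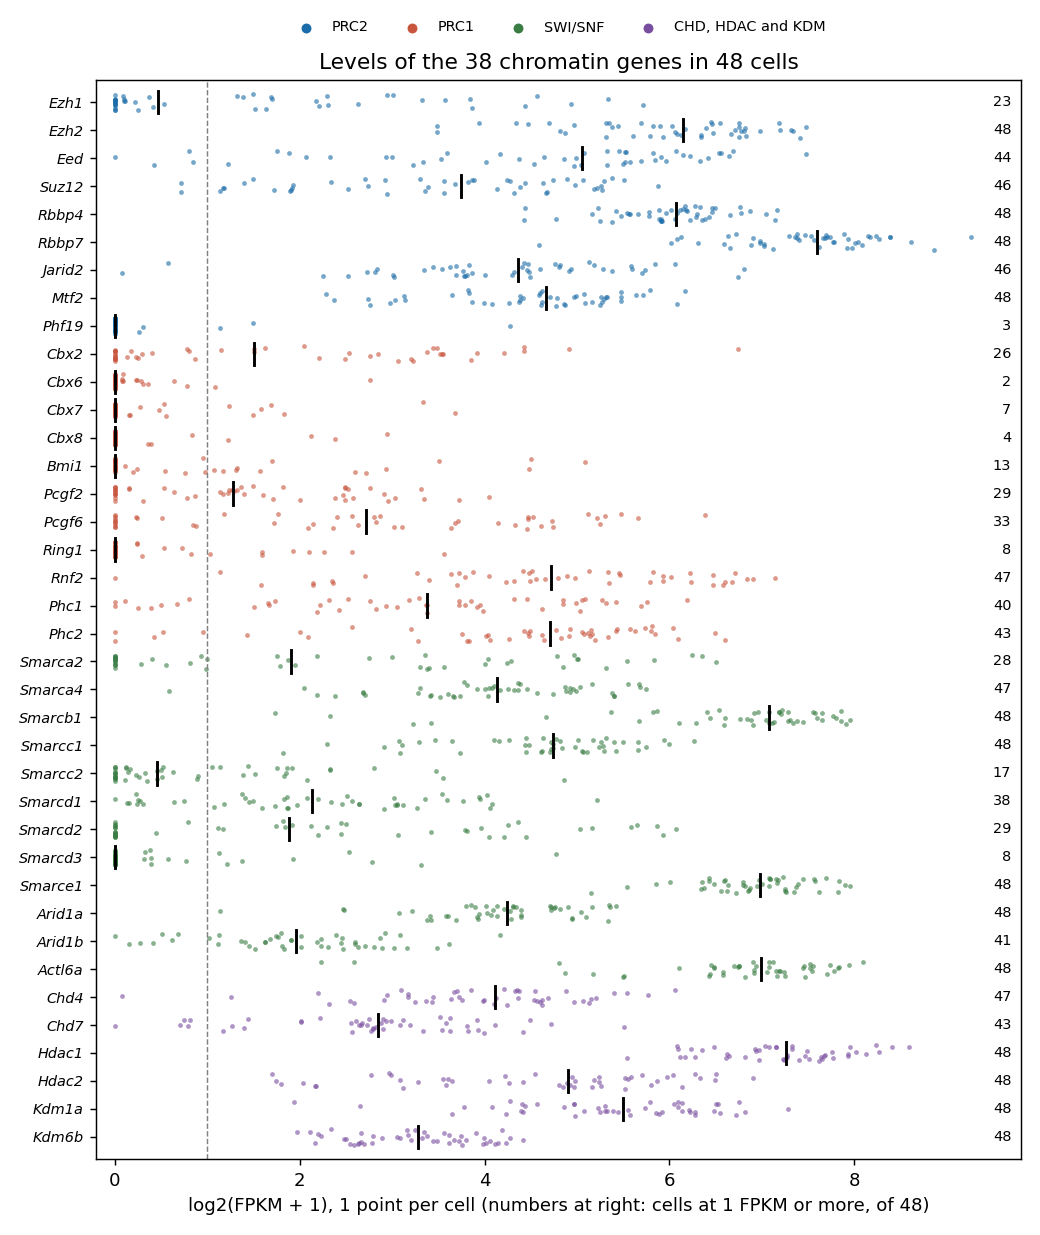
Levels of the 38 genes, 1 row per gene and 1 point per cell, on a log2(FPKM + 1) axis; the bar is the median, the dashed line 1 FPKM, and the number at the right the cells detected of 48. Several PRC1 genes lie to the left, with Cbx6, Cbx8, Cbx7 and Ring1 in 2, 4, 7 and 8 cells. Others of PRC1 do not, with Rnf2, Phc2 and Phc1 in 47, 43 and 40. Rbbp7 and Hdac1 lie far to the right and were in every cell.

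PRC2 was represented by a full core. Ezh2, its main methyltransferase (GRCm38 chromosome 6, 47530139 to 47595341, minus strand), was present in all 48 cells at a median of 69.8 FPKM, between extremes of 10.2 and 178 FPKM. Suz12, the scaffold on which the core assembles, was in 46 cells (median 12.5 FPKM, range 0.640 to 57.8 FPKM). Eed, which binds the methyl mark that PRC2 makes, was in 44 cells (median 32.3 FPKM, highest 177 FPKM), and 1 cell listed it at 0. The core was thus above 1 FPKM in most cells, with Suz12 the lowest of the 3 by median.

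The histone-binding subunits Rbbp4 and Rbbp7, which PRC2 shares with deacetylase complexes, were in all 48 cells. Rbbp7 had a median of 192 FPKM, the highest of the 38 genes, and extremes of 23.2 and 613 FPKM. Rbbp4 had a median of 66.5 FPKM and extremes of 20.5 and 142 FPKM. Among the accessory subunits, Jarid2, which helps to bring PRC2 to its sites, was in 46 cells (median 19.6 FPKM, range 0.0547 to 111 FPKM) and Mtf2, a Tudor-domain protein with the same role, was in all 48 (median 24.4 FPKM, range 3.88 to 70.8 FPKM). Phf19, the Tudor-domain paralogue of Mtf2, was in 3 cells and listed at 0 in 43, and a single cell at 18.3 FPKM held 84.2% of its summed level.

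PRC1 was uneven, with its ubiquitin ligase present and most of its chromobox genes near 0. Rnf2, the main RING-type ligase that ubiquitinates H2A (chromosome 1, 151458004 to 151500955, minus strand), was in 47 cells (median 25.4 FPKM, highest 141 FPKM). Its paralogue Ring1 was in 8 cells, was listed at 0 in 34 and reached 10.8 FPKM. The Polyhomeotic genes Phc1 and Phc2, whose proteins join PRC1 complexes into larger assemblies, were each in most cells: Phc1 in 40 (median 9.36 FPKM, highest 72.1 FPKM) and Phc2 in 43 (median 25.2 FPKM, highest 96 FPKM). Both were listed at 0 in 2 cells.

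The chromobox genes encode the subunits through which canonical PRC1 reads methylated H3. Cbx2 (chromosome 11, 119022962 to 119031270, plus strand) was in 26 cells (median 1.83 FPKM, highest 106 FPKM) and was listed at 0 in 13. Cbx8, which lies next to it on the opposite strand (119036305 to 119040969), was in 4 cells and reached 6.71 FPKM. Cbx7, a chromobox gene of embryonic stem cells, was in 7 cells and reached 11.8 FPKM, and Cbx6 was in 2 and reached 5.77 FPKM. No chromobox gene of the 4 reached 1 FPKM in 18 of the 48 cells.

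The PCGF genes set which variant of PRC1 is formed. Pcgf6, of a non-canonical variant, was in 33 cells (median 5.60 FPKM, highest 82.4 FPKM), Pcgf2 (Mel18), of canonical PRC1, in 29 (median 1.42 FPKM, highest 15.5 FPKM) and Bmi1, also of canonical PRC1, in 13 (median 0 FPKM, highest 32.9 FPKM). Cells with Pcgf6 and Pcgf2 but not Bmi1 were the largest set, 17 of 48, and 9 cells had none of the 3. Of the PCGF genes outside the 38, named after their values were seen, Pcgf1 was in 31 cells (median 6.09 FPKM, highest 65.2 FPKM), Pcgf3 in 14 and Pcgf5 in 3. With all 6 counted 4 cells had none.

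SWI/SNF was led by its small core subunits. Smarcb1, a core subunit lost in rhabdoid tumours, was in all 48 cells (median 134 FPKM, range 2.33 to 247 FPKM). Smarce1, a DNA-binding HMG-box subunit, was also in all 48 (median 126 FPKM, range 34.5 to 246 FPKM). Actl6a, an actin-like subunit of proliferating cells, was as well (median 127 FPKM, range 3.69 to 272 FPKM). The medians of these 3 genes lie within a narrow span, and each was in every cell. The ATPase Smarca4 (Brg1; chromosome 9, 21616169 to 21704230, plus strand) was lower and was in 47 cells (median 16.6 FPKM, range 0.501 to 52.5 FPKM). Its paralogue Smarca2 (Brm) was in 28 cells (median 2.75 FPKM, highest 90.04 FPKM) and was listed at 0 in 14. The longest coding transcript has 1660 bases for Smarcb1, 2919 for Smarce1 and 2010 for Actl6a, beside 6376 for Smarca4. Smarcd3, at 1735 bases, had a median of 0 FPKM. The part of transcript length in these levels was not tested.

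The scaffold, ARID and SMARCD subunits each had a widely detected member and at least 1 sparser one. The scaffold Smarcc1 was in all 48 cells (median 25.8 FPKM, range 2.53 to 75.8 FPKM), and its paralogue Smarcc2 was in 17 (median 0.373 FPKM, highest 28 FPKM). Arid1a, the DNA-binding ARID subunit, was in all 48 (median 17.9 FPKM, range 1.19 to 42 FPKM), and Arid1b was in 41 (median 2.90 FPKM, highest 16.9 FPKM). The SMARCD genes, whose proteins link the complex to transcription factors, were lower. Smarcd1 was in 38 cells (median 3.40 FPKM, highest 36.1 FPKM), Smarcd2 in 29 (median 2.68 FPKM, highest 66.3 FPKM), and Smarcd3, a subunit of heart and muscle complexes, in 8 (median 0 FPKM, highest 26.3 FPKM).

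The 6 remaining genes were all widely detected. Hdac1, a deacetylase of several corepressor complexes, had a median of 153 FPKM (range 45.6 to 386 FPKM), and Hdac2 (range 2.26 to 119 FPKM) a median of 29 FPKM. Kdm1a (Lsd1), which removes methyl groups from histone H3 in repressor complexes, was in all 48 cells (median 44.2 FPKM, range 2.84 to 154 FPKM). Chd4, the ATPase of the NuRD complex, was in 47 cells (median 16.3 FPKM, range 0.0565 to 65.7 FPKM), and Chd7, a remodeller of enhancers, in 43 (median 6.22 FPKM, highest 44.7 FPKM). Kdm6b (Jmjd3; chromosome 11, 69398508 to 69413675, minus strand), a demethylase that removes the mark PRC2 makes, was low but present in every cell (median 8.75 FPKM, range 2.91 to 20.4 FPKM). Kdm6a, its paralogue and named after its values were seen, was in 17 cells (median 0.728 FPKM).

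Paralogue use was one-sided in most families. The 38 genes hold 13 families of paralogues or related subunits, and in 8 of them a single member was the highest in at least 75% of cells. Mtf2 was above Phf19 in all 48 cells. Ezh2 was above Ezh1, Rbbp7 above Rbbp4, Rnf2 above Ring1, Smarcc1 above Smarcc2 and Arid1a above Arid1b in 46 of 48 cells each (95.8%, exact Clopper-Pearson 95% interval 85.7% to 99.5%), counting Rnf2 over Ring1 only where the higher of the pair reached 1 FPKM. Hdac1 was above Hdac2 in 47 cells. Chd4, of NuRD, was above Chd7, a remodeller of enhancers, in 39, and whether they serve as alternatives was not tested. On the log2(FPKM + 1) scale the median difference within a cell was 4.69 for Ezh2 over Ezh1, 4.60 for Mtf2 over Phf19, 4.45 for Rnf2 over Ring1, 4.05 for Smarcc1 over Smarcc2, 2.56 for Hdac1 over Hdac2, 2.12 for Arid1a over Arid1b, 1.54 for Rbbp7 over Rbbp4 and 1.45 for Chd4 over Chd7.

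A lower paralogue was not the same as an absent one. Rbbp4 and Rbbp7, and Hdac1 and Hdac2, were detected together in all 48 cells, Chd4 with Chd7 in 42 and Arid1a with Arid1b in 41. Ezh1, a methyltransferase known from resting and adult cells (chromosome 11, 101191115 to 101226463, minus strand), was detected beside Ezh2 in 23 cells, reached 51.6 FPKM and was listed at 0 in 16. Smarcc2 was beside Smarcc1 in 17 cells, Ring1 beside Rnf2 in 8 and Phf19 beside Mtf2 in 3. The median share of the pair's summed FPKM was 98.3% for Ezh2, 98.6% for Smarcc1, 85.8% for Hdac1, 84% for Arid1a and 74.7% for Rbbp7.

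**Figure D2:**
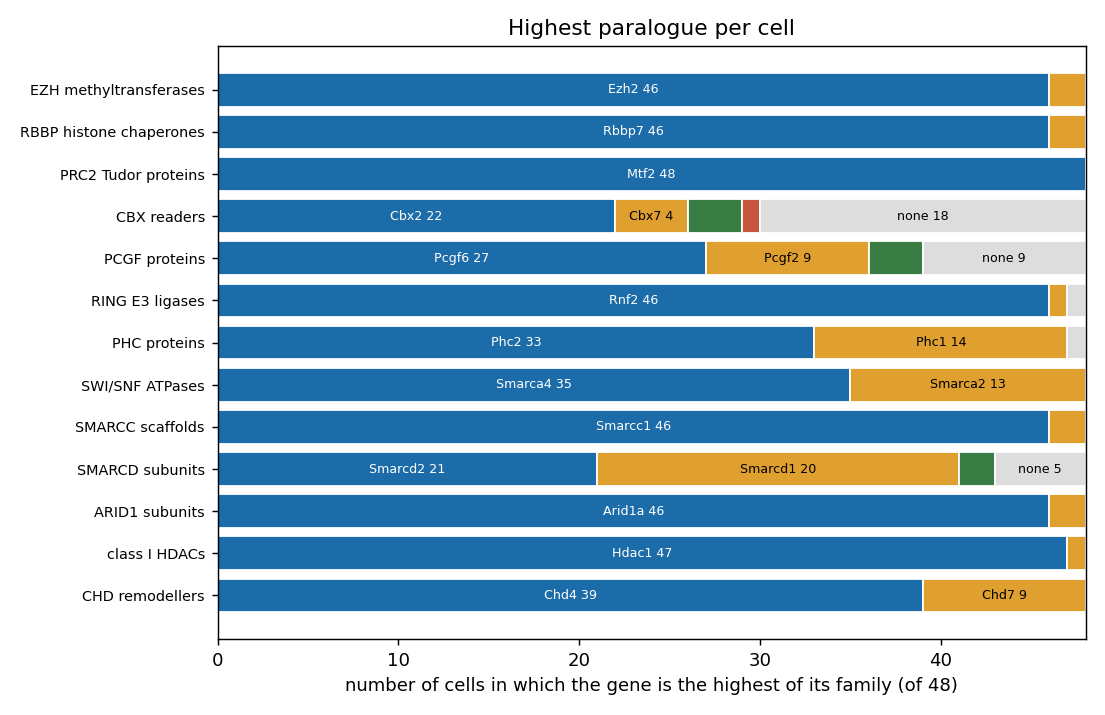
Highest member of each of 13 families in each of 48 cells; bars count cells, unlabelled segments hold 3 cells or fewer, and grey marks cells in which no member reached 1 FPKM. In 8 families 1 colour fills at least 75% of the bar, whereas the CBX, PCGF and SMARCD bars are divided.

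Mtf2 over Phf19 had no exception, and exceptions in the other one-sided pairs ranged from 1 to 9 cells. Ezh1 was above Ezh2 in the cells titled C75 (51.6 against 10.2 FPKM) and C93 (20.7 against 19.2 FPKM). Arid1b was above Arid1a in C75 (16.9 against 9.63 FPKM) and C89 (10.2 against 1.19 FPKM). Smarcc2 was above Smarcc1 in C79 (28 against 16.2 FPKM) and C90 (5.96 against 2.53 FPKM), Ring1 above Rnf2 in C70 (10.8 against 3.42 FPKM), and Hdac2 above Hdac1 in C84 (79.3 against 68.4 FPKM). Rbbp4 was above Rbbp7 in C43 (58.1 against 23.2 FPKM) and C92 (69.8 against 66.7 FPKM). Chd7 was above Chd4 in 9 cells, 7 of the 23 numbered above 48 and 2 of the 25 up to 48, among them C69 (44.7 against 11.4 FPKM) and C04 (21.5 against 8.495 FPKM). The exceptions of the EZH, RING, SMARCC, ARID1 and HDAC pairs all lay in cells numbered above 48, where the median number of detected genes was lower, while those of the RBBP and CHD pairs lay in both ranges. In the 25 cells numbered up to 48, Ezh2, Rnf2, Smarcc1, Arid1a and Hdac1 were the higher of their pairs in every one. The part of the number of detected genes in this was not tested.

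In 5 families cells differed in which member led. Smarca4 was above Smarca2 in 35 cells and Smarca2 above Smarca4 in 13, and the difference on the log2(FPKM + 1) scale ran from -5.66 to 5.67 with a median of 2.44. Among the 13 was cell C36, with 74.9 FPKM of Smarca2 against 0.501 FPKM of Smarca4. Cells led by Smarca2 were found in both ranges of title numbers, 7 of 25 up to 48 and 6 of 23 above. Both ATPases were detected in 27 cells.

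The Polyhomeotic and SMARCD families were also divided. Phc2 led in 33 cells and Phc1 in 14, with both detected in 36; Phc1 led in 11 of 25 cells numbered up to 48 and in 3 of 23 above, so this split moved with the title number. Smarcd2 led in 21 cells, Smarcd1 in 20 and Smarcd3 in 2, and 5 cells had none of the 3. Smarcd1 was detected in more cells than Smarcd2 (38 against 29) but reached 36.1 FPKM at most, against 66.3 FPKM for Smarcd2. Cbx2 led in 22 of the 30 cells with any chromobox gene. Among the 3 PCGF genes of the 38, Pcgf6 led in 27 cells, Pcgf2 in 9 and Bmi1 in 3, and Pcgf1, of a level near that of Pcgf6 by median, was not counted.

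**Figure D3:**
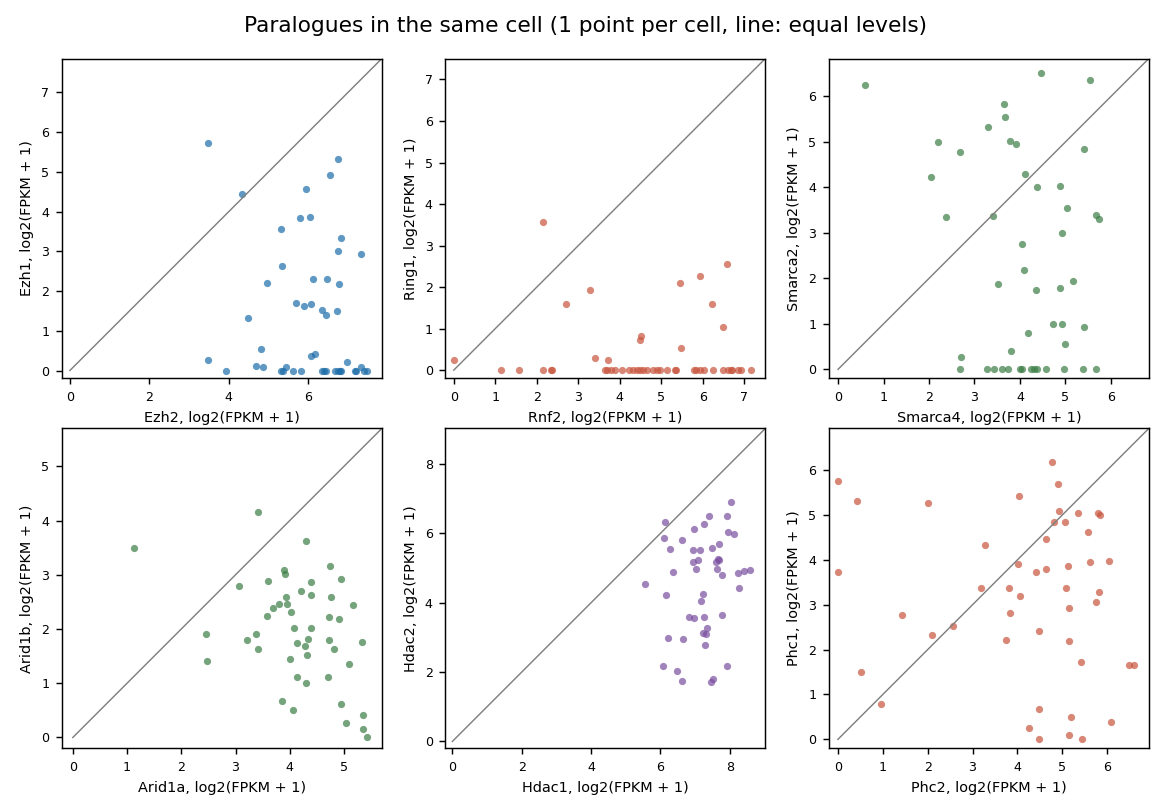
Levels of 6 paralogue pairs in the same cell, 1 point per cell, on log2(FPKM + 1) axes with the line of equal levels. Most Ring1 points lie on the lower edge and all but 2 Ezh1 points lie under the line, whereas Smarca2 against Smarca4 and Phc1 against Phc2 spread to both sides of the line.

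Within pairs, the correlations across cells were weak and of both signs. Over the 48 cells the Spearman correlation was -0.19 for Ezh2 and Ezh1, 0.23 for Rbbp4 and Rbbp7, -0.11 for Smarca4 and Smarca2, -0.096 for Phc1 and Phc2, 0.17 for Hdac1 and Hdac2 and 0.19 for Chd4 and Chd7. The pair farthest from 0 was Arid1a and Arid1b (rho = -0.34, Pearson's r = -0.39), the alternative subunits that define the canonical form of SWI/SNF. Its rho was -0.12 in the cells numbered up to 48 and -0.50 in those above. These are descriptions over cells that share a preparation and differ in the number of detected genes.

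The upstream sequences of 3 one-sided pairs are shown because the lower member of each pair was listed at 0 in many cells, in 16 for Ezh1, 34 for Ring1 and 14 for Smarcc2, while its partner was in nearly all. Each is the 250 bases before the RefSeq start of the gene (GRCm38.p6), written 5′ to 3′ on the gene's strand, with CG dinucleotides in capitals. The windows of Ezh2 and Smarcc1 lie inside the gene as GENCODE draws it, since RefSeq starts them further in.
Ezh2, chr6:47595031-47595280, minus strand: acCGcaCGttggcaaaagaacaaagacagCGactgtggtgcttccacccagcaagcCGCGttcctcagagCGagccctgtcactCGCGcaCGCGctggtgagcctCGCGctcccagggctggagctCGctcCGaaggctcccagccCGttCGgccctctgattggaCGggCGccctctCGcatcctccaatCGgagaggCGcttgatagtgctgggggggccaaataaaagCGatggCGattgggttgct
Ezh1, chr11:101226464-101226713, minus strand: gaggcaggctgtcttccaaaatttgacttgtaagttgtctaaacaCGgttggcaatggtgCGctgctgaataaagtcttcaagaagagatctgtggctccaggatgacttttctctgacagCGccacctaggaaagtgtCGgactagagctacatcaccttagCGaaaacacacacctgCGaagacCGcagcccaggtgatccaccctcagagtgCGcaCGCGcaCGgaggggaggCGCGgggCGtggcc
Rnf2, chr1:151500992-151501241, minus strand: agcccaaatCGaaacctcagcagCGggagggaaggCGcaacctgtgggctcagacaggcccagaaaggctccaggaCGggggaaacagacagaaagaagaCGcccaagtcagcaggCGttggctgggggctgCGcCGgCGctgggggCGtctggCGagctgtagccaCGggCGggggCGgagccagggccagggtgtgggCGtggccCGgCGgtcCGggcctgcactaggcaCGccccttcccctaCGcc
Ring1, chr17:34024681-34024930, minus strand: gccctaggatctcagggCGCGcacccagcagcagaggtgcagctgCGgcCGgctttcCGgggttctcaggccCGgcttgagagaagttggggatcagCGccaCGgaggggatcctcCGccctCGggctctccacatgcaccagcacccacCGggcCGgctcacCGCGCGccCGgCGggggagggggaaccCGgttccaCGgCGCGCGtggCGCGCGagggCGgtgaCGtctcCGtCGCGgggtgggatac
Smarcc1, chr9:110131774-110132023, plus strand: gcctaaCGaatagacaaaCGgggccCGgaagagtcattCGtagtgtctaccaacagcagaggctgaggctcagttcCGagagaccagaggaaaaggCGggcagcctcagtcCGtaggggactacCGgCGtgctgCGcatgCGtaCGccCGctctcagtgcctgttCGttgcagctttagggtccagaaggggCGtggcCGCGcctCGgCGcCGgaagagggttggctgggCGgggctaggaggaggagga
Smarcc2, chr10:128458986-128459235, plus strand: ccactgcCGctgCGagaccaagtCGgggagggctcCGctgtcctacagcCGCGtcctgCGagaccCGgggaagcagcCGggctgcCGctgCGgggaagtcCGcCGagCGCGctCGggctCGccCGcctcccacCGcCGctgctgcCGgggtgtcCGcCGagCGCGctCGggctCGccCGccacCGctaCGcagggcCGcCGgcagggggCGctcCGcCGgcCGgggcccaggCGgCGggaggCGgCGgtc

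The windows hold 23 CG dinucleotides for Ezh2 and 14 for Ezh1, 20 for Rnf2 and 30 for Ring1, and 21 for Smarcc1 and 40 for Smarcc2, so the lower gene had fewer in the first pair and more in the others. RefSeq promoters were found for 33 of the 38 genes, and 28 had a single one. Over these 28 the count ran from 4 to 40 with a median of 22.5, beside medians of 10 over 13222 symbols with a single promoter and 18 over those of them detected in at least 36 cells. The 15 of them detected in at least 36 cells had a median of 23, and the 7 detected in 13 cells or fewer also had a median of 23, with a lowest count of 20. Across all 13222 symbols the CG count had rho = 0.62 with the number of cells detected, and across the 28 genes rho = -0.057. The E2F sites TTTCCCGC, TTTCGCGC, TTTGCCGC and TTTGGCGC, searched on both strands, were found in 3 of the 28 windows (10.7%). These were the windows of Suz12, Phf19 and Smarcd1, all with TTTCCCGC. The share was 2.41% of all 13222 and 4.48% of those detected in at least 36 cells. The CCAAT box, searched on both strands, was in 7 of the 28 (25%), with 3 copies in the Ezh2 window, beside 36.7% of all. A match is a run of letters only.

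Of the 28 genes high enough to be placed, none was called variable between cells for its level. Variability was measured as the squared coefficient of variation on a log10 scale, as the distance from a trend fitted to genes that averaged 5 FPKM or more and were seen in 5 cells or more, and called above 0.3. Of the 38 genes, 28 could be placed and 10 had a mean under 5 FPKM. None of the 28 was called, beside 10.6% of 6266 genes. Of the 28, 8 (28.6%) lay above the trend, beside 51.1% of all, and 10 (35.7%) lay more than 0.3 below it, beside 12.8% of all. The median distance was -0.12, beside 0.0074 for all genes. All of these are descriptions with no test.

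Kdm6b and Arid1a were the most even. Kdm6b lay 0.92 below the trend, lower than all but 0.431% of the 6266 genes, with quartiles of 5.29 and 12.6 FPKM around its median of 8.75 FPKM. Arid1a lay 0.68 below (percentile 1.36), with quartiles of 13.3 and 26 FPKM. Smarcc1, Rbbp4, Mtf2, Smarca4 and Chd7 followed, from 0.47 to 0.42 below the trend. Evenness moved with transcript length: over the 28 genes the distance from the trend had rho = -0.55 with the length of the longest coding transcript, which is 6654 bases for Kdm6b and 8187 for Arid1a, and over 5562 genes of the table it had rho = -0.42. The part of length in the evenness was not tested. The annotation places the antisense gene Kdm6bos over Kdm6b, and strand was not stated for the counting, so reads of the pair cannot be told apart.

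Cbx2 and Smarca2 were the most variable. Cbx2 lay 0.29 above the trend, just inside the limit of 0.3, and a single cell held 30.8% of its summed level. It was called, at 0.34 and 0.36, without the 7 cells of fewest detected genes and after rescaling each cell. Smarca2 lay 0.20 above. Both were listed at 0 in over 25% of cells and above 10 FPKM in others, Cbx2 in 11 and Smarca2 in 16.

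**Figure D4:**
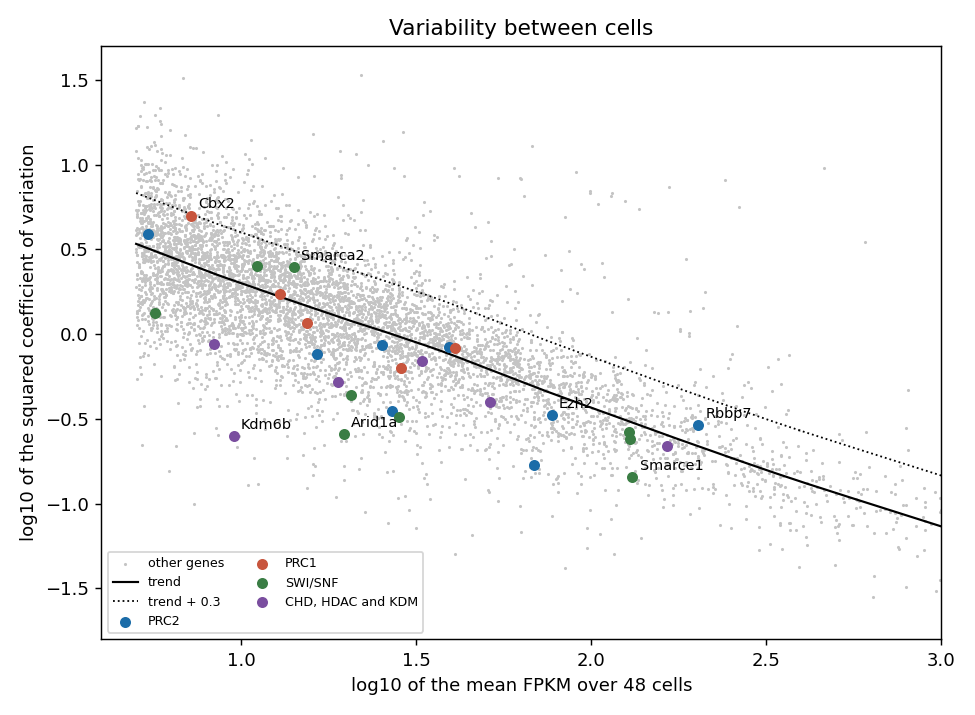
Squared coefficient of variation against mean FPKM over 48 cells, both on log10 scales, for genes averaging 5 FPKM or more, with the axis ending at 3 on the log10 scale; coloured points are the chromatin genes, the solid line is the trend and the dotted line 0.3 above it. Kdm6b and Arid1a lie far under the trend, and no coloured point lies over the dotted line.

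Correlations between the genes were centred near 0, as they were for all genes. Among 32 genes detected in at least 12 cells, the mean Spearman correlation over 496 pairs was 0.0057 (SD 0.16), beside 0.017 (SD 0.15) over all pairs of 8347 genes with the same filter. Pairs above 0.3 made up 3.63% of those 496 and 2.89% of all, and pairs below -0.3 made up 2.82% and 1.63%. Within complexes the mean was 0.0094 for PRC2 (8 genes), 0.045 for PRC1 (7), -0.016 for SWI/SNF (11) and -0.013 for the remaining 6. In the same cells the 51 genes of the G2 and M phase list had a mean of 0.30 and the 40 of the S phase list a mean of 0.11. The mean over the 496 pairs was 0.0043 after regression on the number of detected genes, beside 0.0044 for all genes. It was 0.0079 in cells numbered up to 48 and 0.0051 in those above.

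A few pairs stood highest. Ezh2 and Cbx2 had rho = 0.43 (r = 0.30), but rho was 0.70 in the cells numbered up to 48 and 0.14 in those above. Ezh2 and Eed, partners in the PRC2 core, had rho = 0.40 (r = 0.41), with 0.12 up to 48 and 0.53 above. Phc2 and Smarce1 (0.38), Smarcd2 and Hdac2 (0.38) and Smarce1 and Arid1b (0.37) came next. At the other end, Rbbp4 and Chd4 had rho = -0.41, Rnf2 and Smarca2 -0.38 and Phc1 and Smarce1 -0.37. Of the 18 pairs above 0.3, 5 (27.8%) joined genes within PRC2, PRC1 or SWI/SNF, beside 104 of all 496 pairs (21%). With this many pairs, the named ones are the ends of a range and no more than that.

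**Figure D5:**
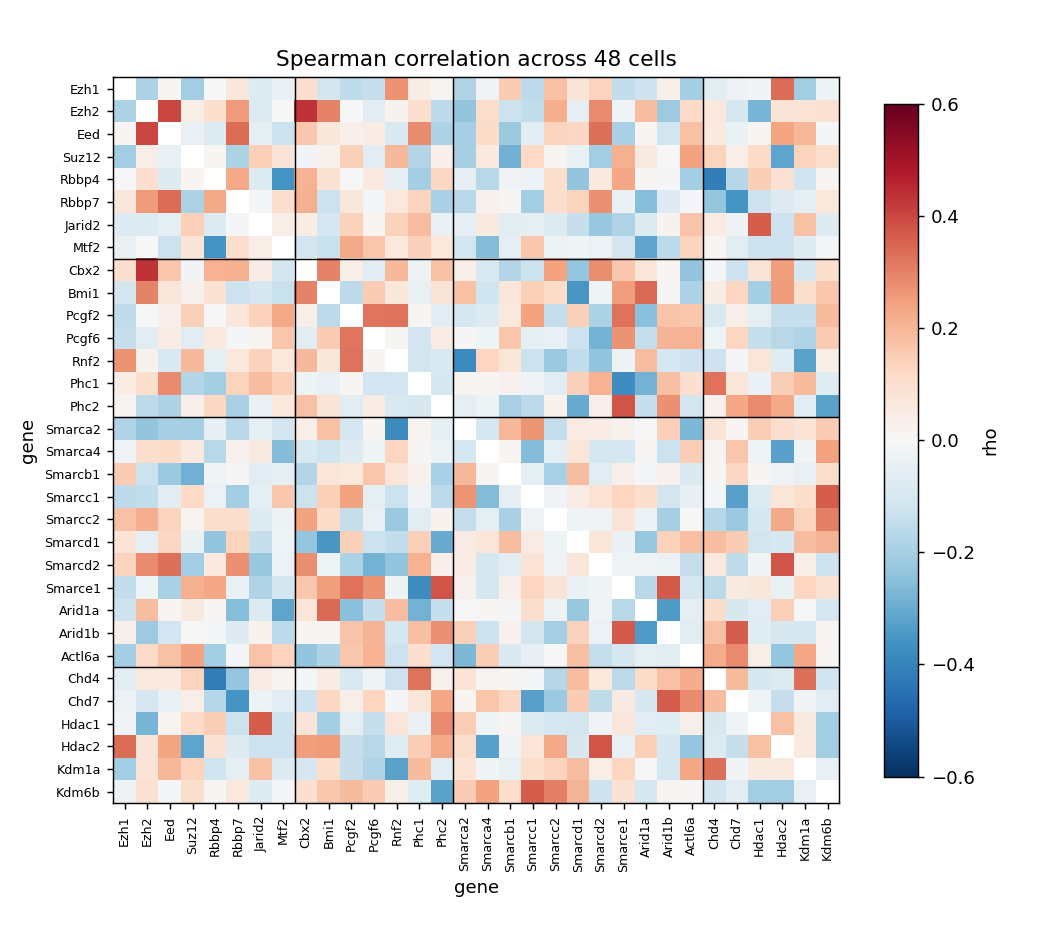
Spearman correlation across 48 cells for 32 genes detected in at least 12 cells, ordered by complex and parted by black lines. Values run from -0.41 to 0.43, and no block along the diagonal is filled with 1 colour.

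The genes were also set beside scores of cell state. The median rho over the 32 genes was 0.077 with the S phase score, 0.066 with the G2 and M phase score, 0.070 with the pluripotency score, -0.017 with the mesenchymal score, -0.036 with the epithelial score and -0.012 with Mesp1, beside medians over 8347 genes of 0.029, 0.059, 0.057, 0.016, 0.024 and 0.0031. With the S phase score, 6 of the 32 genes (18.75%) lay beyond 0.3 in either direction, beside 4.97% of all genes. Cbx2 (0.35), Eed (0.31) and Smarcc2 (0.30) were above, and Smarcb1 (-0.34), Arid1b (-0.33) and Smarca2 (-0.31) below. Pearson's r was 0.26 for Cbx2, 0.31 for Eed and 0.078 for Smarcc2. It was -0.31 for Smarcb1, -0.22 for Arid1b and -0.36 for Smarca2, so not all 6 were beyond 0.3 by r. Smarcc2 was listed at 0 in 14 cells and lay above 0 but under 1 FPKM in 17. With the G2 and M phase score, Chd4 (0.37) was highest and Smarcc2 (-0.45) lowest, and 15.6% of the genes lay beyond 0.3, beside 8.34% of all. The G2 and M phase score had rho = 0.55 with the number of detected genes, with which Chd4 had rho = 0.25 and Smarcc2 -0.056. The part of the number of detected genes in these values was not tested. With the pluripotency score, Phc1 (0.38) was highest and Rbbp4 (-0.41) lowest, with Pearson's r of 0.40 and -0.19. Both moved the same way with the number of detected genes (rho of 0.38 and -0.35), which itself had rho = 0.50 with that score. By rho, 12.5% of the genes lay beyond 0.3, beside 10.1% of all. The share was 6.25% for the mesenchymal score, beside 7.44% of all genes, and 6.25% for the epithelial score, beside 9.32%. With Mesp1, Smarcc1 (0.37) was highest and Eed (-0.32) lowest, and 6.25% of the genes lay beyond 0.3, beside 4.79% of all. Mesp1 itself was detected in 30 cells and listed at 0 in 15, and cells at 0 share a rank. The genes named here are the extremes, chosen after their values were seen.

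Further genes of the same machinery ranged from no cell to all 48. Of 28 other Polycomb genes 6 reached 36 cells (21.4%), led by Mga in 45 and Usp7 and Kdm2b in 41 each, with Phf1 in a single cell and 1 gene in none. Of 18 other SWI/SNF genes found 8 did (44.4%), among them Actb, Pbrm1 (48 cells, median 16.6 FPKM) and Dpf2 (47 cells), with Ss18l1 in 3 and 2 genes, Actl6b and Bcl11b, in none. Of 19 further remodeller and NuRD genes 11 did (57.9%), led by Atrx and Smarca5 in all 48 cells and Gatad2a in 47, with Chd3, a paralogue of Chd4, in 3. Of 27 other deacetylase, corepressor and demethylase genes 6 did (22.2%), led by Kdm5b in 48, Ncor1 in 46 and Sin3b in 45, with Hdac9 in 2. Of 30 histone methyltransferase and acetyltransferase genes 15 did (50.0%), led by Dpy30, Prmt5 and Nsd1 in all 48, with Kat2b in 4. The lists were chosen with earlier results of these cells known, and the 38 genes were not drawn by the same rule, so the shares stand side by side with no test.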

How the data were processed

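RNA of 48 single cells was measured, and the authors deposited 1 table with a column per cell. Its values are treated as FPKM: the table names no unit, and Cufflinks 2.2.1.0 stands in the submitters' processing notes, which list without roles TopHat 0.7, CASAVA 1.8.2 and the build mm10. Not given in the sources used here are the gene annotation, strand setting, read filters and any scaling between cells. Low values did not resolve into whole fragments, so depth and the precision of a level are unknown.

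Columns were matched to cell titles, and all 48 cells form the 1 labelled group. Where a symbol had several rows (240 symbols, none of the 38 genes) their values were added. No cell was removed and no doublet caller was run, since there are no counts. Coordinates come from GENCODE M21 and promoters from RefSeq, both on GRCm38, which mm10 names. Of the 38 genes, 22 overlap another annotated gene (18 on the opposite strand), so their reads may be shared.

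Where a share of cells is printed with an interval, it is an exact Clopper-Pearson 95% interval. Correlations are Spearman's, scores are means of z-scored log2(FPKM + 1) values without the 38 genes, and the variability trend is a lowess with a span of 0.4 (Python 3.11.15, scipy 1.17.1, statsmodels 0.14.6). The mean pairwise correlation and the variability call were run on simulated data, and the other procedures were not. The members, lists and the rule for named genes (every member; in each list the 3 genes in most cells and the detected one in fewest; the 5 highest and 3 lowest pairs) were chosen with earlier results of these data known. Alternatives were the detection threshold, the member filter, the mean and excess limits, the pseudocount, rescaling without 779 short RNA symbols, the highest row per symbol, cells without the 7 under 5189 detected genes, regression on the number of detected genes or title number, and either range of title numbers.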

Additional observations from a re-analysis of the deposited data

How the results depend on the processing

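Detection set the number of genes per cell: the median of 28 became 31 at a threshold of 0.1 FPKM and 19 at 10 FPKM. The count of variable genes, 0 of 28, became 2 with the limit at 0.15 (Cbx2 and Smarca2) and 1 (Cbx2) both after rescaling each cell and without the 7 cells of fewest detected genes; with the limit on the mean lowered to 1 FPKM it was 0 of 33. The median rho over the genes crossed 0 for the mesenchymal score (-0.026 to 0.028) and for Mesp1 (-0.012 to 0.00044). Over the settings run, the number of genes in at least 75% of cells stayed between 16 and 26. That of families led by 1 member stayed between 7 and 8, though not always the same ones. The mean pairwise rho stayed between 0.0024 and 0.0079. The highest row per symbol could not change any leading paralogue's share, since none of the 38 genes has several rows. Rescaling changes all values of a cell alike, so it could move a lead only through the 1 FPKM threshold, and Pcgf6 then led in 58.3%. At 10 FPKM, Cbx2 led in 22.9% of cells in place of 45.8%, Pcgf6 in 37.5% in place of 56.25% and Chd4 in 62.5% in place of 81.25%. At that threshold Rnf2 led in 79.2%, and Mtf2, Smarcc1 and Arid1a in 83.3% each. Chd4 led in 92% of the cells numbered up to 48 and in 69.6% of those above, under the 75% limit, whereas Phc2 led in 56% and 82.6%. Without counts the depth of a cell is unknown, so a gene listed at 0 may be transcribed. No paired analysis was possible because the labels give a single group.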
